A study of Mus musculus with 12 samples.

Results

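The genes described are 7 textbook targets of the transcription factor p53 that act in cell cycle arrest or in feedback on p53 itself: Cdkn1a, Mdm2, Ccng1, Phlda3, Plk3, Trp53inp1 and Sesn1. They were taken as every array probe whose platform gene symbol is one of these names, which gave 17 probes of the 45281 on the array and 7 of its 19057 named genes. The cells were mouse embryonic fibroblasts (MEFs), primary cells grown out of E13.5 embryos of a mixed C57BL6/129Sv background and kept in DMEM with 10% FBS. The 4 genotypes were WT (Sting +/+ Trex1 +/+), TKO (Sting +/+ Trex1 -/-), SKO (Sting -/- Trex1 +/+) and STKO (Sting -/- Trex1 -/-). STING is the adaptor through which cytosolic DNA sensing switches on interferon genes, and TREX1 is an exonuclease that degrades cytosolic DNA. Each genotype received the vehicle DMSO or 20 µg/ml of DMBA, a polycyclic aromatic hydrocarbon that is turned into DNA-binding metabolites, for 24 h or for 48 h. There was 1 array for each genotype and treatment, 12 in all. How long the DMSO cultures were kept is not stated in the labels, and DMBA therefore cannot be told apart from time in culture. Separate embryos or cultures are not named either. Each genotype may be 1 culture, whose own traits cannot be told apart from its genotype. With 1 array each, the p-values rest on how far the genotypes differ in their response to treatment, mixed with technical spread. In the tests of dependence on STING or Trex1, they rest on such differences between genotypes of the same status. No p-value measures a spread between replicate cultures.

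DNA damage stabilises p53, which then binds response elements in its target genes and raises their transcription. Some of the products stop the cell cycle, and others close a feedback loop, since MDM2 marks p53 for degradation and cyclin G1 acts with MDM2 and a phosphatase to lower p53 activity. Fibroblasts are a classical cell in which this response is studied, because they enter arrest rather than apoptosis after moderate damage.

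Promoter windows of the members are shown first, and those printed are the ones that hold a p53 half-site, described below. The windows are RefSeq's (GRCm38.p6), from 250 bases before to 50 after a gene's start, 5′ to 3′ on the gene's strand. Entries matched 6 of the 7 members, with 8 windows in all, and Trp53inp1 is named only. Capitals mark matches to the p53 half-site, the palindromic decamer bound by a pair of p53 subunits, and to GCGTG on either strand (CACGC when read along the printed strand), the core bound by the aryl hydrocarbon receptor, which senses DMBA. No half-site match overlapped a GCGTG match in the windows printed. The windows are Cdkn1a (upstream start) at chr17:29090729-29091028 on the plus strand, Mdm2 at chr10:117710709-117711008 on the minus strand, Ccng1 at chr11:40755237-40755536 on the minus strand and Sesn1 (downstream start) at chr10:41887189-41887488 on the plus strand.
Cdkn1a: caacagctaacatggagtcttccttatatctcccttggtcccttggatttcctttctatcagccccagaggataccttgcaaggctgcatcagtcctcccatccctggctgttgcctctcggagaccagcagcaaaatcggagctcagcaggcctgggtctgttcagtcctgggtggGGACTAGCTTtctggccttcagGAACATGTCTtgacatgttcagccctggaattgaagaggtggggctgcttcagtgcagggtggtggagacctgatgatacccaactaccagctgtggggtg
Mdm2: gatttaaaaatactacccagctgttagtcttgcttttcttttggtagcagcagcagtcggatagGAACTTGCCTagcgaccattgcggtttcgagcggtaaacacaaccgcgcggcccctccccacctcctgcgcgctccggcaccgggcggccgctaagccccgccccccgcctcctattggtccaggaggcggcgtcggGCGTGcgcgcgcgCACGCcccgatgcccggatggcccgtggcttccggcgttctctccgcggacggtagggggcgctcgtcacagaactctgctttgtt
Ccng1: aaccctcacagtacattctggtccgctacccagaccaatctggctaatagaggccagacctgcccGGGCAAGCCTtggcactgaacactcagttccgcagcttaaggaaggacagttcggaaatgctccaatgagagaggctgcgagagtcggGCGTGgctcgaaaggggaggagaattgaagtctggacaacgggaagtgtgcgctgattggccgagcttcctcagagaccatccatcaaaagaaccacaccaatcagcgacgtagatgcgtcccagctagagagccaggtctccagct
Sesn1: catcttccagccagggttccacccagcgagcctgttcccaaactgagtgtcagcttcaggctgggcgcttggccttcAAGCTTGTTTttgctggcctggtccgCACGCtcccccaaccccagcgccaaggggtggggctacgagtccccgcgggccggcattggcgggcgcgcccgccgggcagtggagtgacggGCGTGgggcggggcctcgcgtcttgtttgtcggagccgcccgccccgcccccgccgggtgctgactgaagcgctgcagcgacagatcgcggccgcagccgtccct

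Counting from the start site, the upstream Cdkn1a window held half-sites whose first bases lie at -73 and -51, which together form a full p53 site (a pair of half-sites with a spacer of at most 13 bases). Such a full site occurred in 24 of 32851 windows of all genes (0.0731%), and at least 1 half-site in 8.36%. Mdm2 had a half-site at -186 and GCGTG at -49 and -36. Ccng1 had a half-site at -185 and GCGTG at -97. The downstream Sesn1 window had a half-site at -173 and GCGTG at -147 and -55. GCGTG occurred in 32.4% of all windows. The Phlda3 window and the upstream Sesn1 window held neither motif, the downstream Cdkn1a window had GCGTG only, at -206, and the Plk3 window had GCGTG only, at -111 and 35. These letters describe the windows and were not tested against the responses.

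Of the 17 member probes, 16 were detected on at least 2 arrays (detection p under 0.01) and were tested, and the third Sesn1 probe was detected on 0 arrays. Each array detected 15662 to 16824 probes, and the correlation of log2 levels between arrays ran from 0.91 to 0.99. Levels below are log2 normalized signals of each gene's brightest probe, and they are compared between arrays of 1 probe, never between genes. The targeted genes followed the labels. Sting1 was lower by 2.37 ± 0.12 (SE) in the Sting -/- genotypes (limma, adjusted p = 2.86e-06), and Trex1 was lower by 2.03 ± 0.14 in the Trex1 -/- genotypes (adjusted p = 8e-05).

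The arrest gene Cdkn1a and the feedback genes Mdm2 and Ccng1, together with Phlda3 and Trp53inp1, were higher after DMBA than under DMSO at both times. Sesn1 fell at 24 h on its brightest probe, but the test did not pass with any 1 genotype left out or on the second probe. For Cdkn1a, Mdm2, Ccng1 and Phlda3 the rise on the brightest probe was larger in each of the genotypes with STING than in either without it. The tests of this difference are given after the levels. The share of all tested probes ordered in this way was not counted. On another Ccng1 probe the 24 h rise was 0.94 in TKO and 0.95 in STKO.

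Cdkn1a encodes p21, the inhibitor of cyclin-dependent kinases through which p53 stops the cycle in G1. Under DMSO its level was 12.37 in WT and 12.68 in TKO, with 12.63 in SKO and 12.82 in STKO. After 24 h of DMBA it was 14.23 in WT and 14.45 in TKO, with 13.24 in SKO and 13.99 in STKO. After 48 h it was 14.40, 14.45, 13.72 and 14.11 in the same order. All 8 DMBA arrays lay above all 4 DMSO arrays, and SKO was the lowest of the genotypes at both times. The mean difference from DMSO was 1.35 ± 0.19 at 24 h (limma, adjusted p = 0.00313) and 1.55 ± 0.19 at 48 h (adjusted p = 0.00033). As a fold over DMSO, the 24 h rise was 3.64-fold in WT and 3.41-fold in TKO, with 1.53-fold in SKO and 2.25-fold in STKO. The TKO levels at 24 and 48 h are tied after quantile normalization, and across the arrays this probe ranked between 133 and 826 of 45281 in brightness. The other Cdkn1a probes rose by 1.84 ± 0.19 and 1.82 ± 0.24 at 24 h, and by 2.05 ± 0.19 and 1.87 ± 0.24 at 48 h.

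Mdm2 encodes the ubiquitin ligase that targets p53 for degradation. Its DMSO level was 11.27 in WT and 11.17 in TKO, with 11.65 in SKO and 11.66 in STKO. At 24 h of DMBA it stood at 13.45, 13.85, 12.32 and 13.23 in that order. At 48 h it stood at 13.84, 14.13, 13.33 and 13.77. The treated arrays did not overlap the DMSO arrays, and TKO was the highest and SKO the lowest at each time. The difference was 1.77 ± 0.26 at 24 h (adjusted p = 0.00354) and 2.33 ± 0.26 at 48 h (adjusted p = 0.000206). Per genotype the 48 h rise was 5.94-fold in WT and 7.76-fold in TKO, with 3.19-fold in SKO and 4.30-fold in STKO. The second Mdm2 probe rose by 1.80 ± 0.21 and 2.44 ± 0.21. A further, dim probe was not detected on any DMSO array but was detected on all 8 DMBA arrays, and was at least 1.66-fold higher at 24 h and at least 2.95-fold higher at 48 h, a bound set by the lowest signals above background.

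Ccng1 encodes cyclin G1, which brings a phosphatase to MDM2. Its DMSO level was 12.07 in WT and 12.14 in TKO, with 12.78 in SKO and 13.14 in STKO. After 24 h of DMBA the levels were 13.83 in WT and 14.02 in TKO, with 13.36 in SKO and 13.77 in STKO. After 48 h they were 14.42, 14.13, 13.77 and 14.08. The genotypes without STING started higher and ended lower, and DMSO and DMBA arrays did not overlap. The mean rise was 1.21 ± 0.25 at 24 h (adjusted p = 0.0124) and 1.56 ± 0.25 at 48 h (adjusted p = 0.00108). The 24 h rise lost its call without WT (1.02, adjusted p = 0.065) or without TKO (0.99, adjusted p = 0.0894). At 48 h the rise was 5.11-fold in WT and 3.96-fold in TKO, but 1.98-fold in SKO and 1.91-fold in STKO. Both other Ccng1 probes rose, by 1.01 ± 0.15 and 0.96 ± 0.13 at 24 h.

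Phlda3 encodes a small pleckstrin homology protein that holds back the survival kinase AKT. It read 10.98 in WT and 11.15 in TKO, with 11.29 in SKO and 11.39 in STKO under DMSO. With DMBA it read 12.45, 12.47, 12.13 and 12.43 at 24 h. At 48 h it read 12.99, 12.97, 12.17 and 12.71. At 24 h the SKO array lay apart below the other 3, which were almost level, and at 48 h SKO had hardly moved further. The rise was 1.17 ± 0.17 at 24 h (adjusted p = 0.00323) and 1.51 ± 0.17 at 48 h (adjusted p = 0.000192). The second Phlda3 probe rose about as much, by 1.10 ± 0.12 and 1.58 ± 0.12, but its overall level was lower by 1.28 ± 0.10 in the genotypes without STING (adjusted p = 3.41e-05), which the first probe did not show (-0.15 ± 0.14, adjusted p = 0.533). Under DMSO this second probe read 10.93 in WT and 11.01 in TKO against 9.56 in SKO and 10.33 in STKO, so the probes of Phlda3 disagree on the level but not on the response to DMBA.

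Trp53inp1, a p53-induced nuclear protein that promotes p53 phosphorylation, read 10.61 in WT and 10.73 in TKO, with 10.94 in SKO and 10.65 in STKO under DMSO. It read 12.12, 12.33, 11.56 and 11.84 after 24 h of DMBA. It read 12.49, 12.58, 12.24 and 12.50 after 48 h. The 4 genotypes were spread at 24 h, with both genotypes without STING lower, and STKO had reached WT by 48 h. The mean rise was 1.23 ± 0.15 at 24 h (adjusted p = 0.00218) and 1.72 ± 0.15 at 48 h (adjusted p = 8.37e-05). The second probe rose by 1.23 ± 0.12 and 2.06 ± 0.12.

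Plk3, a polo-like kinase of the stress response, had 1 probe. Its DMSO levels were 8.14 in WT and 7.89 in TKO, with 8.67 in SKO and 8.93 in STKO. Its 24 h levels were 9.07, 9.27, 8.36 and 9.09. Its 48 h levels were 9.28, 9.41, 8.93 and 9.18. The DMSO and DMBA arrays overlapped, since SKO after 24 h of DMBA was below its own DMSO array. The 24 h difference of 0.54 ± 0.25 did not pass (adjusted p = 0.162), and the 48 h rise was 0.79 ± 0.25 (adjusted p = 0.0278). That 48 h call was lost without WT (0.67, adjusted p = 0.131) or without TKO (0.55, adjusted p = 0.114). Within WT and TKO the 48 h difference was 1.14 and 1.52, and within SKO and STKO it was 0.26 and 0.24.

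Sesn1, a sestrin that restrains the growth kinase mTORC1, went the other way. Under DMSO it read 9.82 in WT and 9.82 in TKO, with 9.63 in SKO and 9.41 in STKO. At 24 h it read 9.38, 9.07, 8.63 and 8.64. At 48 h it read 9.37, 8.73, 9.41 and 9.51. Every genotype was lower at 24 h than under DMSO, and by 48 h SKO and STKO had come back up while WT had not moved and TKO was lower still. The mean fall was -0.74 ± 0.20 at 24 h (adjusted p = 0.0372), a call lost on leaving out any 1 genotype (-0.84 to -0.65, adjusted p from 0.0733 to 0.106). This call was also lost with array weights (-0.53, adjusted p = 0.0756) and with all probes of the array tested (-0.74, adjusted p = 0.093). The 48 h difference of -0.42 ± 0.20 did not pass (adjusted p = 0.131). The second Sesn1 probe, annotated to the same transcript, differed by -0.19 ± 0.13 at 24 h (adjusted p = 0.347) and -0.08 ± 0.13 at 48 h (adjusted p = 0.643).

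**Figure D1:**
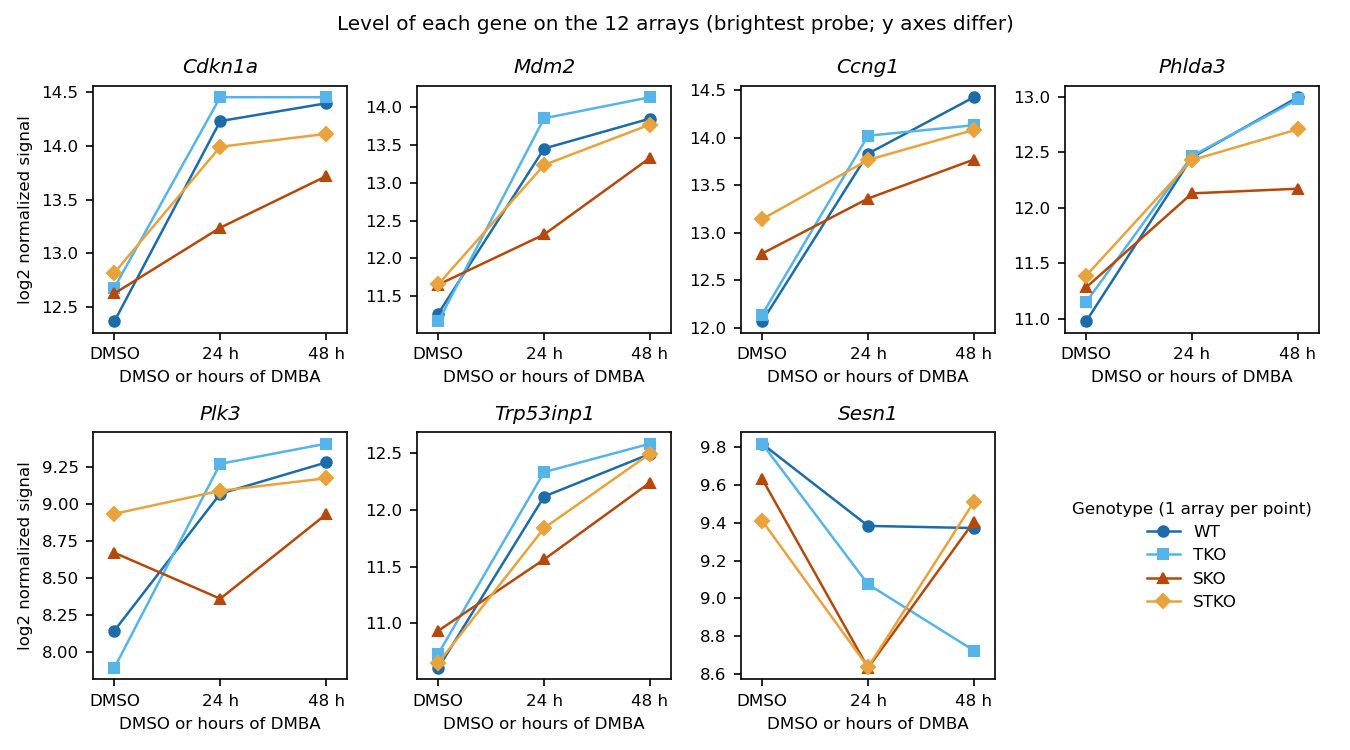
Log2 normalized signal of each member's brightest probe (y axis, scaled separately for each gene) under DMSO and after 24 or 48 h of DMBA (x axis), with 1 point per array and lines joining the arrays of a genotype. Cdkn1a, Mdm2, Ccng1, Phlda3 and Trp53inp1 lie above their DMSO arrays at both times, SKO is the lowest treated genotype for these 5, and Sesn1 falls at 24 h.

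By gene, 5 of 7 members rose and 1 fell at 24 h, against 6.8% of all tested probes higher and 8.84% lower. At 48 h 6 of 7 rose and 0 fell, against 19.1% of all tested probes higher and 20.4% lower. The median difference of the members was 1.21 at 24 h and 1.55 at 48 h, where that of all 18389 tested probes was 0.02 and -0.01. By probe, 13 of 16 rose and 1 fell at 24 h, and 14 of 16 rose at 48 h. Pooled over both times, 6 members rose and Sesn1 fell (-0.58 ± 0.18, adjusted p = 0.0292), against 16.9% of probes higher and 18.1% lower. Without TKO, Plk3 (0.40, adjusted p = 0.185) and Sesn1 (-0.46, adjusted p = 0.0787) lost that pooled call, and both also lost it without WT (0.54, adjusted p = 0.169, and -0.62, adjusted p = 0.0731). Plk3 also lost it without STKO (0.82, adjusted p = 0.0549), and Sesn1 without SKO (-0.56, adjusted p = 0.0603).

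From 24 h to 48 h all 7 members differed upward, with a median of 0.34, but 0 brightest probes passed in limma, with 1 at an unadjusted p under 0.05, and 10.4% of all tested probes were called in either direction. Of the other probes, the second Trp53inp1 probe rose by 0.83 ± 0.12 (adjusted p = 0.00532), the dim Mdm2 probe by 0.83 ± 0.18 (adjusted p = 0.0197) and the second Phlda3 probe by 0.48 ± 0.12 (adjusted p = 0.0339).

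Most of the other p53 targets tested also rose. The list was chosen with earlier results of these data known, so this is no independent support. Of 26 listed, 21 were tested. At 24 h, where 6.8% of all tested probes were higher and 8.84% lower, 15 targets rose and 0 fell, with a median of 0.81. Among them, Dcxr, a carbonyl reductase, rose by 2.13 ± 0.22 (adjusted p = 0.00151) and Pidd1, a death domain protein that activates caspase-2, by 2.26 ± 0.31 (adjusted p = 0.00281). At 48 h 17 rose and 0 fell, with a median of 1.05, against 19.1% of all tested probes higher and 20.4% lower. Polk, a translesion DNA polymerase, was among the risen targets, at 1.59 ± 0.17 (adjusted p = 0.000167). Of 15 genes for p53, its regulators and upstream kinases, 10 were tested, and the transcript of p53 itself was not analysed here. The checkpoint kinase Chek2 rose by 0.60 ± 0.10 at 24 h (adjusted p = 0.00491), as did Rchy1, another p53 ubiquitin ligase, by 0.43 ± 0.11 (adjusted p = 0.032), while the kinase Hipk2 fell by 0.55 ± 0.14 (adjusted p = 0.0263). At 48 h Chek2 and Rchy1 rose and Mdm4, the partner of MDM2, fell by 0.73 ± 0.17 (adjusted p = 0.00816).

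Relatives of the members moved in both directions. Of 12 listed, 11 were tested, and 2 rose and 2 fell at 24 h, then 3 rose and 5 fell at 48 h. Cdkn1b, which encodes the sister inhibitor p27, fell by 0.76 ± 0.13 at 24 h (adjusted p = 0.00578) and by 1.22 ± 0.13 at 48 h (adjusted p = 0.000156), against the rise of Cdkn1a. Sesn2, a sestrin, rose by 0.73 ± 0.11 at 48 h (adjusted p = 0.00101), and Phlda1 rose by 1.56 ± 0.36 at 24 h (adjusted p = 0.0206). Of 22 cyclins, cyclin-dependent kinases and other cell cycle genes, 16 were tested. At 24 h, Ccne1, cyclin E1, rose by 0.68 ± 0.18 (adjusted p = 0.0318) and Ccnd1, cyclin D1, by 0.99 ± 0.27 (adjusted p = 0.0366), and 0 fell. At 48 h 2 rose and 9 fell, with the survivin gene Birc5 at -1.14 ± 0.14 (adjusted p = 0.00029) and the mitotic kinase Aurka at -0.99 ± 0.13 (adjusted p = 0.000507).

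The response of each genotype is a difference between 2 single arrays and carries no replicate check. The median member difference at 24 h was 1.51 in WT and 1.60 in TKO, with 0.61 in SKO and 1.04 in STKO. At 48 h it was 2.01, 1.82, 0.99 and 1.29. SKO had the smallest median at each time, and WT and TKO the larger ones. For Ccng1 the genotypes with STING differed from DMSO by 1.76 and 1.88 at 24 h, and those without it by 0.58 and 0.62.

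**Figure D2:**
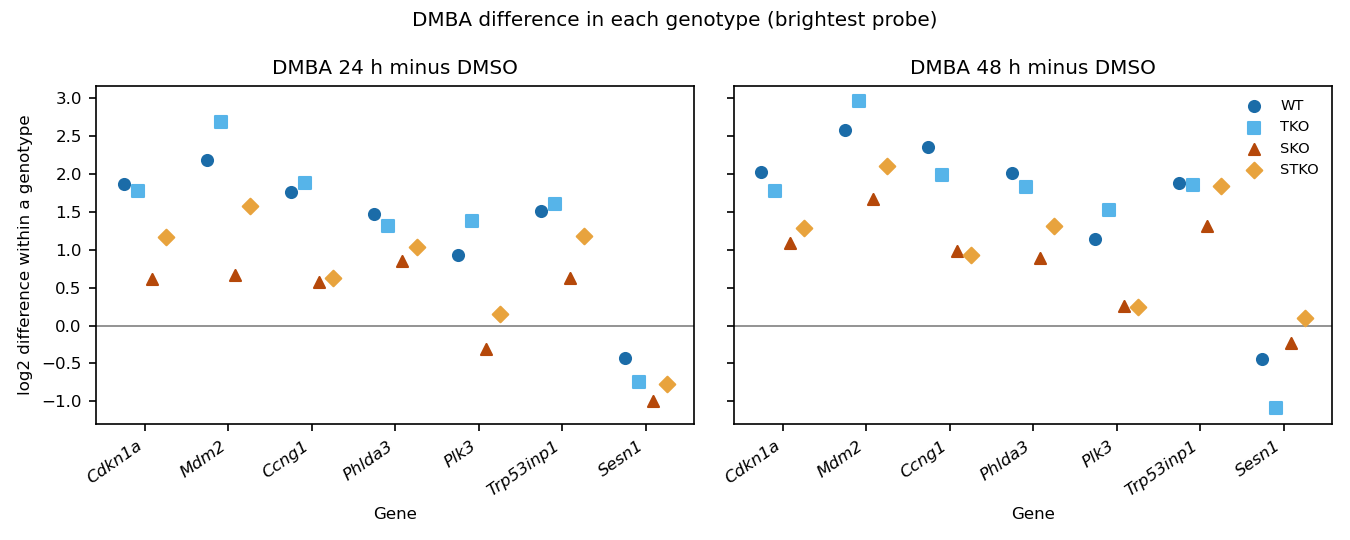
Log2 difference between a DMBA array and the DMSO array of its genotype (y axis) for the brightest probe of each member (x axis), at 24 h on the left and 48 h on the right, 1 point per genotype. WT and TKO lie above SKO and STKO for Cdkn1a, Mdm2, Ccng1, Phlda3 and Plk3 at both times, and Sesn1 is below 0 in all 4 genotypes at 24 h. The share of all tested probes with WT and TKO above SKO and STKO was not counted.

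STING dependence was tested as the mean response of WT and TKO minus that of SKO and STKO, over both times. It passed for 3 of 7 members, all larger with STING, where 2.91% of all tested probes were called in that direction (536 of 1122 calls, and 416 of 1361 with median scaling in place of quantile normalization, which left 2 members called). These were Ccng1 (1.21 ± 0.17, 95% interval 0.82 to 1.60, adjusted p = 0.0159), Plk3 (1.16 ± 0.20, interval 0.69 to 1.63, adjusted p = 0.0261) and Cdkn1a (0.82 ± 0.19, interval 0.39 to 1.25, adjusted p = 0.0452). Mdm2 (1.09 ± 0.26, interval 0.49 to 1.69, adjusted p = 0.0501) and Phlda3 (0.63 ± 0.16, interval 0.26 to 1.01, adjusted p = 0.0597) fell just short. Trp53inp1 differed by 0.47 ± 0.19 (interval 0.03 to 0.91, adjusted p = 0.159) and Sesn1 by -0.20 ± 0.20 (interval -0.67 to 0.26, adjusted p = 0.557). The median over the 7 was 0.82, and over all tested probes it was 0.00. With 1 genotype left out, a STING class holds 1 genotype, with 1 array per treatment. Without WT, TKO or SKO the member calls were lost, along with nearly all calls over all probes, and without STKO only Mdm2 was called. The sizes of the 3 called differences lay between 0.63 and 1.37. Their adjusted p then ran from 0.0546 to 0.245 for Cdkn1a, from 0.0575 to 0.179 for Ccng1 and from 0.0536 to 0.193 for Plk3.

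The other probes gave a mixed picture. Both other Cdkn1a probes passed, at 0.72 (adjusted p = 0.0398) and 1.13 (adjusted p = 0.0139), and the second Mdm2 probe passed at 0.92 (adjusted p = 0.0423). Neither other Ccng1 probe passed, at 0.57 (adjusted p = 0.0811) and 0.37 (adjusted p = 0.147), so the size for Ccng1 depends on the probe. The second Phlda3 probe gave 0.38 (adjusted p = 0.133) and the second Trp53inp1 probe 0.11 (adjusted p = 0.734). The dim Mdm2 probe, undetected under DMSO, has no measured response to compare. In all, 6 of 16 member probes were called.

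**Figure D3:**
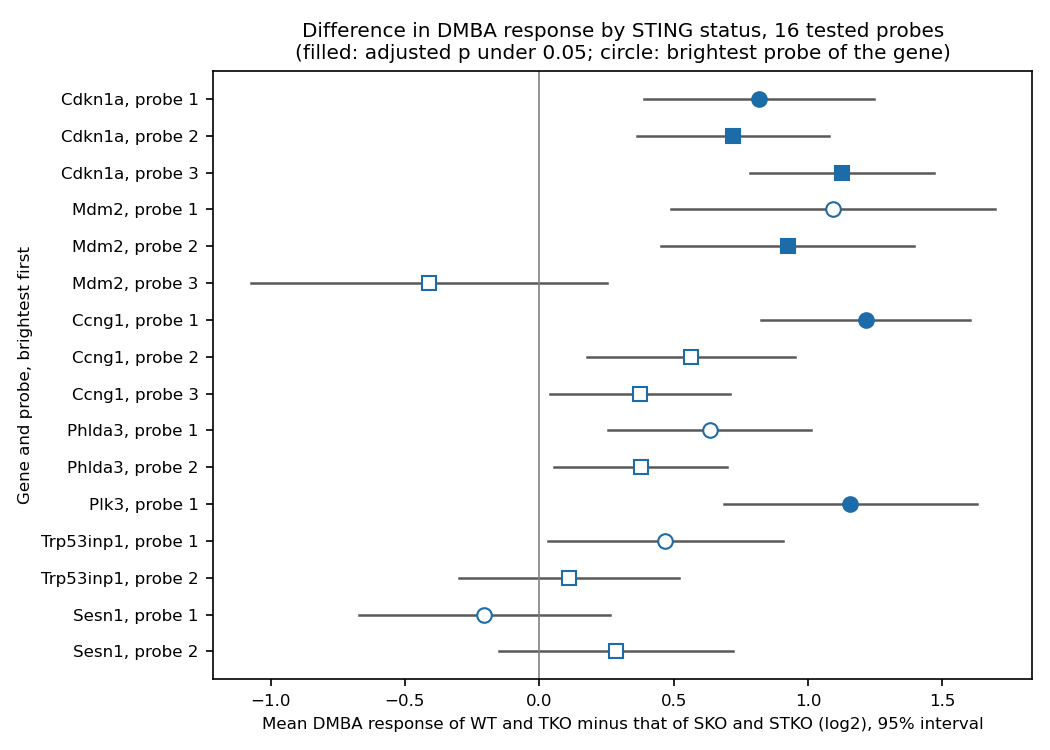
Difference in DMBA response between the genotypes with and without STING (x axis, log2, mean of 24 and 48 h) for the 16 tested member probes (y axis, brightest first within a gene), with 95% intervals and filled symbols where the adjusted p is under 0.05. Filled symbols are the brightest probes of Cdkn1a, Ccng1 and Plk3, both other Cdkn1a probes and the second Mdm2 probe, and Mdm2 probe 3 was undetected under DMSO, so that its point is no measured response.

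At 24 h alone 4 of 7 members passed, against 2.56% of all probes in the same direction: Cdkn1a (0.93, adjusted p = 0.0472), Mdm2 (1.31, adjusted p = 0.0468), Ccng1 (1.22, adjusted p = 0.0309) and Plk3 (1.23, adjusted p = 0.0372). At 48 h alone Ccng1 (1.21, adjusted p = 0.0228) and Plk3 (1.08, adjusted p = 0.0445) passed, against 2.37% of all probes. On the other probes at 24 h, Cdkn1a gave 0.41 (adjusted p = 0.178) and 0.88 (adjusted p = 0.038), Mdm2 0.92 (adjusted p = 0.0577), and Ccng1 0.58 (adjusted p = 0.101) and 0.17 (adjusted p = 0.525). The 24 h count fell to 2 with median scaling or array weights and to 0 with all probes of the array tested. Without WT, TKO or SKO these calls were lost, along with nearly all calls over all probes. Without STKO that of Mdm2 at 24 h remained. The 48 h difference of Cdkn1a was 0.71 on the brightest probe (adjusted p = 0.0932), 1.04 (adjusted p = 0.0257) and 1.38 (adjusted p = 0.0132) on the others. Phlda3 gave 0.45 at 24 h (adjusted p = 0.164) and 0.82 at 48 h (adjusted p = 0.0505).

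Among the members, the step from 24 h to 48 h differed most by STING status for Sesn1. From 24 h to 48 h it changed by -0.01 in WT and -0.35 in TKO, with 0.77 in SKO and 0.87 in STKO. The genotypes with and without STING did not overlap, but the share of all tested probes separated in this way was not counted. The difference in this step was -1.002 ± 0.23 (interval -1.54 to -0.46), short of the threshold (adjusted p = 0.0589). It passed without background correction and in the authors' value table (both -0.91, adjusted p = 0.0272), with an offset of 50 (-0.94, adjusted p = 0.0326) and over probes detected on all 12 arrays, and not with median scaling, all probes of the array or array weights. This contrast was chosen after the values were seen. Of the 7 members 0 were called for it in limma, with 1 at an unadjusted p under 0.05, where 3.33% of all tested probes were called in either direction. The second Sesn1 probe gave -0.20 ± 0.22 (adjusted p = 0.589).

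Part of each difference by STING status lay in the DMSO arrays. Under DMSO, Ccng1 was higher by 0.86 in the mean of SKO and STKO than in that of WT and TKO, Plk3 by 0.79, Mdm2 by 0.44 and Cdkn1a by 0.20. Under DMBA the order was turned, with Ccng1 lower by 0.36 in SKO and STKO at 24 h, Plk3 by 0.45, Mdm2 by 0.87 and Cdkn1a by 0.73. On these brightest probes the DMSO side was the larger at 24 h for Ccng1 and Plk3, and the DMBA side for Mdm2 and Cdkn1a. On the other Cdkn1a probes the DMSO side was the larger at 24 h, at 0.47 against 0.06 and 0.51 against -0.37 (SKO and STKO minus WT and TKO). At 48 h the DMBA side was the larger on both, at 0.47 against -0.57 and 0.51 against -0.87. For the brightest Mdm2 probe the sides were alike at 48 h (0.44 against -0.44). On the brightest Cdkn1a probe the STING classes overlapped under DMSO but not under DMBA. On both other Cdkn1a probes they overlapped at 24 h of DMBA but not under DMSO or at 48 h. Averaged over the 3 treatments, 0 of 7 brightest probes differed in level by STING status in limma (0 at an unadjusted p under 0.05), where 9.74% of all tested probes were called. Where the order turned between DMSO and DMBA, opposite differences cancel in this average, so it does not show equal levels.

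Loss of Trex1 was tested in the same way. For the response to DMBA 0 of 7 members passed, with 0 at an unadjusted p under 0.05, and 0% of all tested probes were called (290 at an unadjusted p under 0.05). The intervals were wide. This model held no term for STING status, so differences in response by STING status counted as spread. For Cdkn1a the standard error was 0.37 here and 0.19 in the STING test. The count of 0 therefore does not show a response independent of Trex1. As the response with Trex1 minus that without, Mdm2 gave -0.56 (interval -1.61 to 0.50) and Cdkn1a gave -0.10 (interval -0.95 to 0.75). In level, 0 of 7 brightest probes differed by Trex1 status (0 at an unadjusted p under 0.05), against 2.35% of probes, while the second Phlda3 probe was higher without Trex1 (0.47 ± 0.10, adjusted p = 0.0389).

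Fewer probes of the whole array moved in the genotypes without STING. The share of tested probes that moved past a log2 difference of 1 at 24 h was 9.41% in WT and 10.9% in TKO, with 2.93% in SKO and 4.15% in STKO. At 48 h it was 16.9%, 16.6%, 5.87% and 11.0%. The members moved with this. Ranked among all tested probes of its genotype, the median member lay at percentile 98.5 in WT and 98.3 in TKO, with 92.3 in SKO and 98.3 in STKO at 24 h, and at 98.3, 97.4, 96.5 and 96.9 at 48 h. Divided by the SD of all probes' differences, the median member difference at 24 h was 2.30 in WT and 2.31 in TKO, with 1.40 in SKO and 2.24 in STKO. At 48 h it was 2.37, 2.15, 1.84 and 1.93. On that scale SKO was the lowest at both times, and STKO lay near WT at 24 h but near SKO at 48 h. The part of the smaller overall response in the members' difference by STING status was not tested. Among genes of DMBA metabolism, chosen after their values were seen, Cyp1b1, the enzyme that activates DMBA, responded without a called difference by STING status (-0.23 ± 0.17, adjusted p = 0.442), whereas the quinone reductase gene Nqo1 responded more with STING (1.03 ± 0.21, adjusted p = 0.0377).

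**Figure D4:**
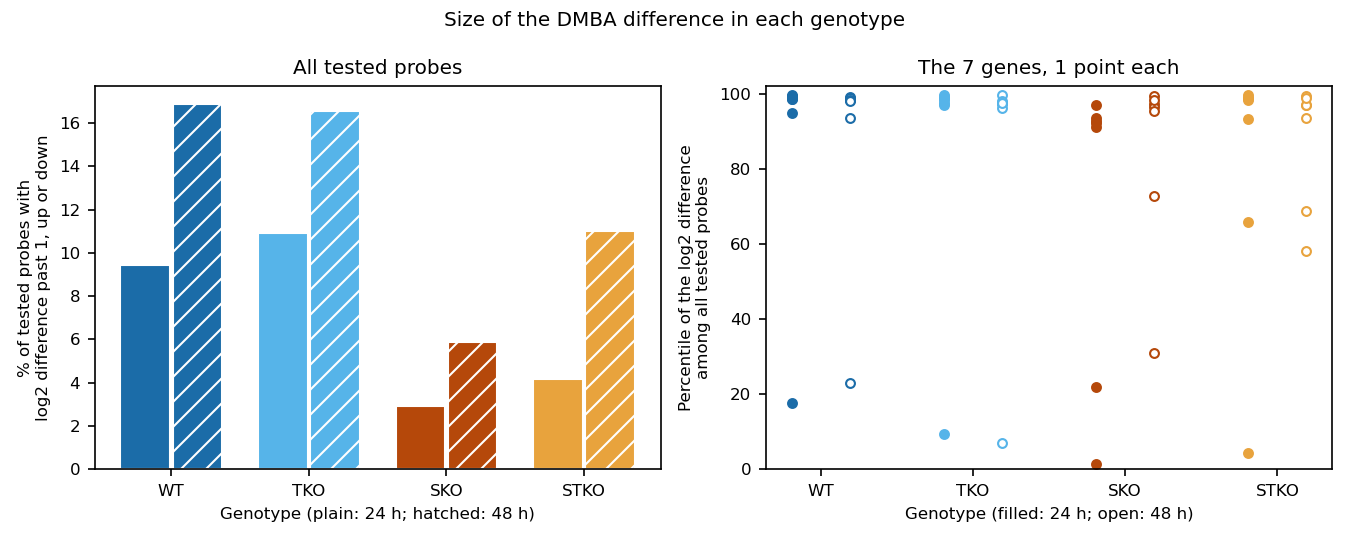
On the left, the share of all tested probes with a log2 difference from DMSO past 1 in either direction (y axis, percent) for each genotype (x axis), plain bars for 24 h and hatched bars for 48 h. On the right, the percentile of each member's difference among all tested probes of that genotype, filled for 24 h and open for 48 h, where SKO has the smallest share of moved probes and the lowest median member percentile at 24 h.

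Among the other p53 targets, the difference by STING status passed for 2 of 21, both larger with STING, against 2.91% of all tested probes in that direction. These were Pmaip1, the BH3-only gene Noxa (2.06 ± 0.33, adjusted p = 0.0211), and Aen, an apoptosis-enhancing nuclease (1.00 ± 0.21, adjusted p = 0.0389). The median over the list was 0.38. Of the 10 tested p53 regulators 0 passed. Among the relatives of the members, Phlda1 rose more with STING (1.26 ± 0.20, adjusted p = 0.0202). For Sesn3 the difference was negative (-0.79 ± 0.16, adjusted p = 0.0345). Sesn3 rose by 0.37 to 0.73 in SKO and STKO and differed by -0.63 to 0.07 in WT and TKO. Among the 16 cell cycle genes, Ccnd1 rose more with STING (1.36 ± 0.18, adjusted p = 0.0134). The difference was also positive for Cdc20, the activator of the anaphase-promoting complex (0.74 ± 0.15, adjusted p = 0.0366). At 24 h Cdc20 differed from DMSO by 0.71 in WT and 0.59 in TKO, with -0.56 in SKO and -0.43 in STKO. At 48 h it had fallen in all genotypes, by more in SKO (-0.82) and STKO (-1.03) than in WT (-0.56) and TKO (-0.64).

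The labelled cell type was checked against its markers. All 9 fibroblast markers were detected on all 12 arrays, and Epcam, Pecam1, Cdh5, Kdr, Myod1, Myog and Sox2 on none. Among the other markers checked, Krt8 (epithelium), Des and Acta1 (muscle), and Map2 and Nes (neural) were detected on all 12, Krt18 on 5, Tek on 3 and Cdh1 on 2. Of 8 macrophage markers 4 were detected on all 12 arrays and Ptprc on none, and their summed log2 level ran from 11.74 to 14.79 under DMSO, from 10.97 to 13.93 at 24 h and from 12.13 to 14.78 at 48 h. TKO was the lowest genotype for all 6 tested under each treatment. Under DMSO, Lyz2 read 11.01 in TKO, against 14.12 in WT, 13.26 in SKO and 13.30 in STKO. In level, 5 of the 6 were called higher without STING and 5 lower without Trex1, and both tests include TKO. Of the 6 tested, 4 fell and 0 rose at 24 h (median -1.28), 5 fell and 1 rose at 48 h (median -1.32), and Adgre1 (-0.82, adjusted p = 0.0382) and C1qc (-0.85, adjusted p = 0.039) differed in response by STING status. Fewer cells of a type and less RNA per cell cannot be told apart in such bulk samples. Of the fibroblast markers, 2 of 9 differed in response by STING status, Pdgfra (-1.48, adjusted p = 0.0228) and Col1a2 (-1.06, adjusted p = 0.0236). The median response of the 9 at 24 h was -0.97 in WT and -1.22 in TKO, with 0.10 in SKO and -0.42 in STKO, and their summed log2 level ran from 15.74 to 16.01 under DMSO, from 15.28 to 16.004 at 24 h and from 15.62 to 16.04 at 48 h. The part of either cell type in the members' differences was not tested.

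Across the 12 arrays 6 of the members had like patterns, with Pearson correlations of 0.80 to 0.98 between their brightest probes, and Sesn1 ran against them at -0.46 to -0.60. These correlations are descriptions over arrays that share treatments and genotypes. Among 10135 other genes, those most like Cdkn1a were 1700007K13Rik (r = 0.994) and Slc19a2 (r = 0.992), and Slc19a2 was also most like Mdm2 (r = 0.990). Aaas was among the 3 most like both Ccng1 (r = 0.984) and Phlda3 (r = 0.985). The gene most like Trp53inp1 was Polk (r = 0.986), the one most like Plk3 was Enc1 (r = 0.971), and the one most like Sesn1 was 6430548M08Rik (r = 0.931).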

How the data were processed

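RNA of the MEFs was labelled with biotin and hybridized to Illumina MouseWG-6 arrays, per the labels' protocols, with 12 arrays in all. The deposited signal is an intensity per probe and array on a linear scale, not normalized, per the file headers. The deposited detection column is a score that rises with the signal (Spearman correlation from 0.98), so 1 minus this column served as the detection p. The authors' value table is in log2 units. Setting it against the signals showed quantile normalization with no background correction and centring on each probe's median, with a largest difference of 0.00125. No label or header names the scanner software.

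Background correction by detection p (offset 16), quantile normalization and log2 transformation were done with neqc in limma 3.58.1 under R 4.3.3. The test took the 18389 of 45281 probes detected (p under 0.01) on 2 or more of 12 arrays. Of all probes, 34885 had 1 gene symbol, 18 had several and 10378 had none. Treatment differences came from a linear model with genotype and treatment (6 residual degrees of freedom). Dependence on STING or Trex1 came from adding the status times treatment, each fitted without the other (4 residual degrees of freedom). Adjusted p-values are 2-sided limma values with Benjamini-Hochberg adjustment over all tested probes, called under 0.05, and ± gives limma's standard error. A gene is represented by its tested probe with the highest mean. On simulated data for 18389 probes, the 24 h comparison recovered 79% of changes of log2 1 and the test of STING dependence 24%, and 100% and 88% of changes of log2 2. Each run held 100 changes of each size. Its spread came from the model of genotype and treatment alone, in which real differences by STING status count as noise. The shares for STING dependence need not hold for these data. The number of arrays limits the precision. The named genes are all member probes, up to 4 called genes of each list by smallest p, and the 3 genes most correlated with a member. The members and lists were chosen with earlier results of these data known. Alternatives were another background correction and scaling, the value table, another offset, other probe filters, array weights and leaving out each genotype.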

Additional observations from a re-analysis of the deposited data

Results flagged for a closer look

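The response to DMBA differed between the genotypes with and without STING by the test of the difference for Cdkn1a (0.82 over both times, 0.93 at 24 h), Mdm2 (1.31 at 24 h), Ccng1 (1.21 over both times, 1.22 at 24 h and 1.21 at 48 h) and Plk3 (1.16 over both times, 1.23 at 24 h and 1.08 at 48 h), all as log2 differences larger with STING. None of these calls was kept without WT, without TKO or without SKO, and without STKO only that of Mdm2 at 24 h was. Such a fit leaves 1 genotype in a STING class, and leaving out WT, TKO or SKO also removed nearly all calls over all probes.

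On the brightest probes SKO lay apart from the other 3 genotypes in 2 values. The Phlda3 level of SKO after 24 h of DMBA was 12.13, with a gap of 0.891 of the range of the 4 genotypes, over Dixon's 95% critical value for 4 values. The Trp53inp1 difference between the 48 h and the DMSO array of SKO was 1.31, with a gap of 0.928 of the range. Chance alone gives such a gap in about 1 in 20 groups. The groups checked were the levels under 3 treatments and the differences at 24 h and 48 h for 7 members. A few such gaps can therefore come from chance. On the second Trp53inp1 probe the SKO difference at 48 h was 1.95, above 1.79 in WT. The second Phlda3 probe at 24 h read 10.53 in SKO and 11.28 in STKO, against 12.16 in WT and 12.23 in TKO.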

How the results depend on the processing

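Over the processing alternatives the count of members called was 5 to 6 at 24 h and at 48 h, and 4 to 6 and 5 to 6 with a genotype left out. For the STING dependence the count of 3 became 5 with quantile normalization without background correction, with the authors' value table, with an offset of 50 and with probes detected on all 12 arrays, 1 with all probes of the array, and 0 to 1 with a genotype left out. At 24 h alone the 4 members became 2 with median scaling and with array weights and 0 with all probes of the array (0 probes called in all). At 48 h alone the 2 members became 4 without background correction and in the value table, 3 with an offset of 50 and with probes detected on all 12 arrays, and 1 with all probes and with array weights. Over all probes, the 1122 calls for STING dependence became 1885 without background correction, 1884 in the value table, 1766 with an offset of 50, 211 with all probes tested, 516 with array weights and 0 to 656 with a genotype left out. The 2876 calls at 24 h became 581 to 3464 and the 7277 at 48 h became 4885 to 7268 with a genotype left out.

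Differences that turned sign did not pass the threshold where they did so. For the STING dependence, Sesn1 ran from -0.44 to 0.0348 with a genotype left out, gave 0.29 on its second probe (0.18 at 48 h), and the second Trp53inp1 probe gave -0.0597 at 48 h. The fitted values of the dim Mdm2 probe (-0.41, -0.38 at 24 h and -0.44 at 48 h) start from undetected DMSO levels and measure no difference in response. For the STING dependence of the step from 24 to 48 h, median scaling gave 0.0826 for Ccng1 and 0.0668 for Plk3, leaving out a genotype gave Ccng1 from -0.25 to 0.23 and Plk3 from -0.40 to 0.089, and other probes gave Cdkn1a 0.50 and 0.63, Mdm2 0.0150 and Ccng1 0.40. For the Trex1 dependence, array weights gave 0.0803 for Cdkn1a and 0.0302 for Plk3. With a genotype left out, the Trex1 dependence ran from -0.65 to 0.44 for Cdkn1a, from -1.16 to 0.0459 for Mdm2, from -0.57 to 0.70 for Ccng1, from -0.51 to 0.37 for Phlda3, from -0.95 to 0.31 for Plk3, from -0.65 to 0.0773 for Trp53inp1 and from -0.19 to 0.39 for Sesn1. For the level by STING status, Plk3 gave -0.0234 under median scaling and -0.000199 with array weights, other Ccng1 probes gave -0.0805 and -0.0138, and with a genotype left out Ccng1 ran from -0.13 to 0.23, Plk3 from -0.19 to 0.22 and Phlda3 from -0.31 to 0.00519. The cause was not tested.

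Genotype is the block in each treatment comparison, which sets a DMBA array against the DMSO array of its genotype. No paired analysis was possible beyond that because each genotype and treatment has 1 array and every replicate number is 1. In the simulation the test of STING dependence recovered 24% of changes of log2 1, but its spread counted real STING differences as noise. Among the members, differences of 0.82 to 1.21 over both times were called. A member short of the threshold is not shown to be independent of STING.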
